A study of Homo sapiens with 4 samples.

Results

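LTR retrotransposons are remnants of endogenous retroviruses and of related elements, flanked by long terminal repeats (LTRs) that can act as promoters. In the H1 line of human embryonic stem cells, wild type and long established in culture, 327 regions of N6-methyladenosine (m6A, a methylated adenosine in RNA) had their centre in such an element. They were taken from the 9900 m6A regions of the series as those whose centre was annotated to an intron or to sequence between genes (6282 regions) and to the repeat class LTR. Of the 327, 191 were centred in introns and 136 between genes. The series holds 4 libraries of total RNA from untreated wild-type cells, 2 of input and 2 recovered with an m6A antibody, and the deposited set is a single intersection of MACS2 peaks described in its file name as primed. No value per library, peak height or RNA level entered, so no spread between replicates could be set beside any difference, depth was unknown, and whether the RNA carried the cell identity on the label was not tested. A region without a listed peak is not shown to lack m6A.

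The repeat name is that of the element under the centre of the region, not of the whole region. Human LTR elements fall into ERV1, ERVK and ERVL, named for their kinship to classes of retroviruses, and into the ERVL-MaLR group of THE1, MST and MLT1 elements, which are spread by the proteins of other elements. A full element has an internal part between 2 LTRs, and names that end in -int denote that part. In pluripotent human cells the ERV1 element HERVH, driven by its LTR7, is known for strong transcription, and in mouse stem cells m6A on the RNA of IAP elements is known to take part in their silencing. Many KRAB zinc finger proteins are known to bind and silence LTR elements.

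Of 10 members that began right at an annotated start site, 5 did so at zinc finger (ZNF) genes (exact 95% interval 18.7 to 81.3%), and their promoters are shown first because the regions begin there. ZNF symbols made up 1.84% of the start sites in the promoter table (647 of 35116), 12 of 136 regions without a repeat that began there (8.82%, 4.64 to 14.9%), 6 of 47 at Alu (12.8%, 4.83 to 25.7%) and 1 of 21 at L1. At the remaining repeats they were 1 of 30 (3.33%, 0.0844 to 17.2%). The difference was not tested, since the members are few, include related genes and were picked after their values were seen. All 10 start sites lie on the plus strand, an imbalance that the other classes share, as given below. All 3 regions centred in the ERV1 element MER57E3 lay in intron 1 of a ZNF gene, ZNF254, ZNF273 and ZNF138, and began 41, 45 and 11 bp downstream of the annotated start site. Where copies of MER57E3 lie in the genome was not analysed here. The promoter windows from RefSeq (GRCh38.p14, plus strand, 250 bases before to 30 bases after the start site) are at chr19:24086937-24087216 for ZNF254, chr7:64903023-64903302 for ZNF273 and chr7:64794178-64794457 for ZNF138. MER57E3 is the element at the region centres, 537.5 to 712.5 bp downstream of the start sites. The ZNF254 and ZNF273 windows end before their regions begin, and whether any window holds LTR sequence was not analysed here. Capitals mark the runs of at least 10 bases found in all 3.
ZNF254: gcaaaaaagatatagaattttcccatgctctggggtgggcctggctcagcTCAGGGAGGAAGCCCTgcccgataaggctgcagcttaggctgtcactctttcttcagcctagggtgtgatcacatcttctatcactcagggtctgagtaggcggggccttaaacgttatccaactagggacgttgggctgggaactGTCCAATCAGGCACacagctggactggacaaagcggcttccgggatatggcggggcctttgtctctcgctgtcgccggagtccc
ZNF273: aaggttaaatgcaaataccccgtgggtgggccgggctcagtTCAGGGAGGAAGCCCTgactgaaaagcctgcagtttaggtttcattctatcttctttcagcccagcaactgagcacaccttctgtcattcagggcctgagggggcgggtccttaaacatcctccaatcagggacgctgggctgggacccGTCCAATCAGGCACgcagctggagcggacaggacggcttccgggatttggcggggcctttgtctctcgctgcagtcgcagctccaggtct
ZNF138: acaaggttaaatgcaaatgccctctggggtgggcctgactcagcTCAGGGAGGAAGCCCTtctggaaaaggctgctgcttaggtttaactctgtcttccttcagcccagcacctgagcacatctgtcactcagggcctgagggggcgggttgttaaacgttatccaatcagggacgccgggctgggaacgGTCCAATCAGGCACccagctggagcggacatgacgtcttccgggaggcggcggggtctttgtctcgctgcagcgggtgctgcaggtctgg
The first shared run had 16 bases and began at -200, -209 and -206 from the start site in ZNF254, ZNF273 and ZNF138, and the second had 14 bases and began at -54, -60 and -60. On either strand the 16-base run occurred in 12 of 35116 promoter windows (0.0342%), 11 of them of ZNF symbols, and the 14-base run in 19 (0.0541%), 16 of them of ZNF symbols. Of the 12 start sites with the 16-base run, 3 had an m6A region within 2 kb. These were ZNF254, ZNF273 and ZNF138 with their MER57E3 regions, from which both runs were taken, so these 3 were fixed by selection. None of the others, ZNF430, ZNF43 and ZNF208 among them, had a region within 2 kb. Of the 19 with the 14-base run, 4 had one, the same 3 genes and ZNF91, whose intron 1 region was centred outside any repeat. How many of all start sites have a region within 2 kb was not analysed here. ERV3-1, a gene of retroviral origin on chromosome 7, also carried the 14-base run and had no region within 2 kb.

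At a pair of start sites on chromosome 19 the regions were centred in another ERV1 element, HERV3-int, which held 4 members in all. The other 2 were in LINC02984 and between genes, 59685 bp from the start site of DHRS2 on chromosome 14. The regions in intron 1 of ZNF525 and ZNF761 began 20 and 11 bp downstream of the start site. They had HERV3-int at the centre, 1858.5 and 2262 bp downstream, and whether their promoter windows hold LTR sequence was not analysed here. On either strand, 2 shared runs of 10 bases occurred in 9.53 and 5.31% of 35116 promoter windows and are common. They began at -124 and -120 in ZNF525 but first at -88 and -89 in ZNF761. The third of 10 bases occurred in 0.325%, and the longer runs in 0.00854 to 0.0199%. Their windows are at chr19:53365455-53365734 for ZNF525 and chr19:53431734-53432013 for ZNF761 (plus strand), with shared runs of at least 10 bases in capitals.
ZNF525: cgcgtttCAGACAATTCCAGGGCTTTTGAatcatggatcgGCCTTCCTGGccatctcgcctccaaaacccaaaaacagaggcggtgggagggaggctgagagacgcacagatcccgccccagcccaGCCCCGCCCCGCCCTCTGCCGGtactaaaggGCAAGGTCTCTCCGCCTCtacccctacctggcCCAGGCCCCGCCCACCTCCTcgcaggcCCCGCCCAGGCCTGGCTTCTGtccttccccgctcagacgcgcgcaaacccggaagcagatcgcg
ZNF761: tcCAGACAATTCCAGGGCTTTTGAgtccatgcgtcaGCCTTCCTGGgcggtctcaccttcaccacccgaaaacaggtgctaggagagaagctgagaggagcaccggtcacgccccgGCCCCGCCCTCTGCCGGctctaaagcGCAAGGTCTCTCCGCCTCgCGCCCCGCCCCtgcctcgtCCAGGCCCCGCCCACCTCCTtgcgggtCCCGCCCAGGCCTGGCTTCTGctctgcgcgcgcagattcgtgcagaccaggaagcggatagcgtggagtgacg
The 3 promoters of the MER57E3 set were 73.2 to 82.8% identical in global alignments of 280 bases, and the ZNF525 and ZNF761 promoters 72.5%. The 32 other pairs among 9 promoters at which a region began (these 5 and those of ERVK3-1, ASRGL1, SRP19 and LINC00205) were 43.7 to 52.2% identical. Zinc finger genes of chromosomes 7 and 19 are known to have arisen by duplication, so members of a set are not independent of each other. The promoters were chosen after the values were seen, and a shared run is a description only.

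ERVK3-1, a non-coding gene on chromosome 19 that carries an endogenous retrovirus, held 2 members. One, 1200 bp wide, began 11 bp downstream of the start site and was centred in LTR3, an LTR of the ERVK class, in intron 1 of 3. The other, 2758 bp wide at positions 58312275 to 58315032, was centred in HERVK3-int in intron 3 of 3, and 5687 bp separated the 2 regions. The ERVK3-1 window (chr19:58305127-58305406, plus strand) is given with the transcribed bases that lie inside the region in capitals.
ERVK3-1: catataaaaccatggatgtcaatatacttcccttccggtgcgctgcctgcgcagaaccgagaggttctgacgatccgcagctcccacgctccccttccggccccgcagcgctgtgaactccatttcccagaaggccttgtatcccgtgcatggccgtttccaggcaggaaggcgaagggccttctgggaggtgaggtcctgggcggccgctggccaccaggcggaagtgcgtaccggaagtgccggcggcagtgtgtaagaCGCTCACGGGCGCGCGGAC
The capitals start at the first base of the region and end at the last base of the window, and the region runs on from there into the intron.

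In all, 10 of 320 members on chromosomes with start sites in the RefSeq promoter table began 0 to 50 bp downstream of one (3.12%, exact 95% interval 1.51 to 5.67%). They were ZNF761, ERVK3-1 and ZNF138 at 11 bp, ZNF525 and ASRGL1 at 20 bp, LOC124904792 at 30 bp, LINC00205 at 32 bp, SRP19 at 36 bp, ZNF254 at 41 bp and ZNF273 at 45 bp. ASRGL1 encodes an asparaginase and SRP19 a protein of the signal recognition particle. MER4D1 lay at the centre of the ASRGL1 region and of that of LINC00205, a non-coding RNA, and MER51A at that of the SRP19 region. The LOC124904792 region, in MER21C, was annotated as intergenic, with ZNF665 as the nearest gene. ERV1 elements made up 8 of the 10, and ZNF genes 5. Regions centred in L1 began there in 0.996% of cases (21 of 2109, 0.617 to 1.52%), those in Alu in 7.23% (47 of 650, 5.36 to 9.50%) and those without a repeat in 5.66% (136 of 2402, 4.77 to 6.66%). These shares were looked at after the pattern was seen, with windows up to 100 bp on either side and several width limits also tried, and were not tested. All 10 genes lie on the plus strand, where 163 members had their closest start site, and none of the 157 members closest to a start site on the minus strand began there. An imbalance of the same direction was seen in every other class. Without repeats, 115 of 1288 regions closest to a plus-strand start site began 0 to 50 bp downstream of it. Of those closest to a minus-strand one, 21 of 1114 did. The counts were 45 of 344 against 2 of 306 at Alu and 18 of 1090 against 3 of 1019 at L1. At the remaining repeats they were 25 of 266 against 5 of 274. The cause was not tested.

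Measured from the centre, the 10 members closest to a start site lay 537 to 1288 bp downstream of it. Centres annotated to a promoter or an exon are outside the members by construction. The side and distance of these 10 are therefore partly set by the selection. They were the regions of ZNF254, ZNF273, ERVK3-1, ZNF138, SRP19 and ASRGL1 and 4 others. HERV3-int in intron 1 of 1 of LINC02984 (832 bp wide) was centred 1048 bp from the start site, LTR54B in intron 1 of 1 of UBA6-DT (2085 bp) 1136 bp, MER57-int in intron 2 of 2 of LINC03015 (1151 bp) 1191 bp, and LTR16C in intron 10 of 15 of MAP7D2 (1301 bp) 1288 bp from the start site of the microRNA gene MIR23C. All but LTR16C, an ERVL element, and LTR3, an ERVK element, belong to ERV1. ZNF761, ZNF525, LINC00205 and LOC124904792 are outside these 10 and were named after their values were seen.

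**Figure D1:**
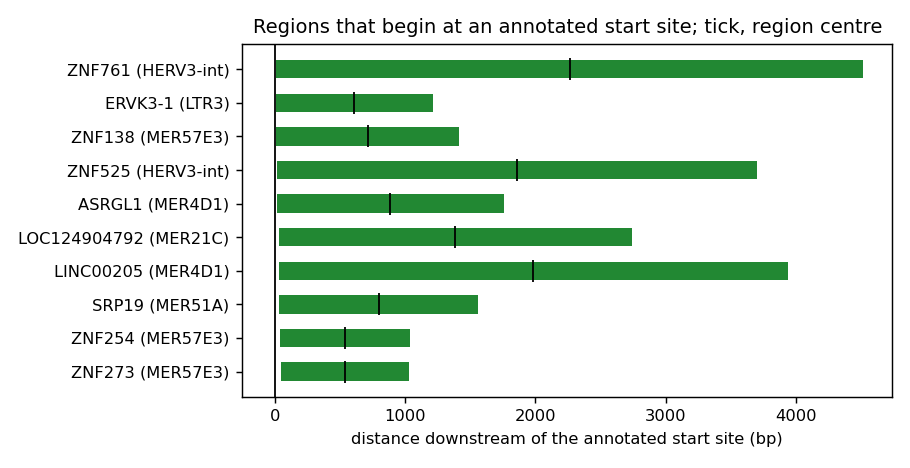
Extent of the 10 regions that begin 0 to 50 bp downstream of an annotated start site, in bp from that site along the gene (bars), with the centre of each region (ticks); the element at the centre is in parentheses. The regions begin 11 to 45 bp from the site and their centres lie 537.5 to 2262 bp beyond it.

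Elements of the ERVL-MaLR group held the largest share of members. There were 168 such regions (51.4%), 90 in ERV1 (27.5%), 50 in ERVL (15.3%) and 14 in ERVK (4.28%). The remaining 5 were in families marked as uncertain (ERVL? with 2, ERV1? and Gypsy? with 1 each) or given only as LTR. In all, 141 element names occurred, 93 of them once. How much of the genome, or of transcribed introns, each family covers was not analysed here, so a high count is not an excess.

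The internal parts of THE1 elements, which belong to the primate lineage, were the most frequent site. They held 68 regions, and the LTRs of THE1 another 19. THE1B-int led with 33 regions, followed by THE1B with 14, THE1C-int with 13, THE1D-int with 12, HERVL-int with 12, LTR12C with 11, THE1A-int and MSTA-int with 10 each, MLT1C with 8 and MER52A with 6. In THE1 and MST elements, internal names were more or about as numerous as LTR names (68 against 19 for THE1, 12 against 13 for MST). In MLT1 elements, the oldest of the group, LTR names held 50 and internal names 6. Among all members, 140 had an internal name and 187 another.

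**Figure D2:**
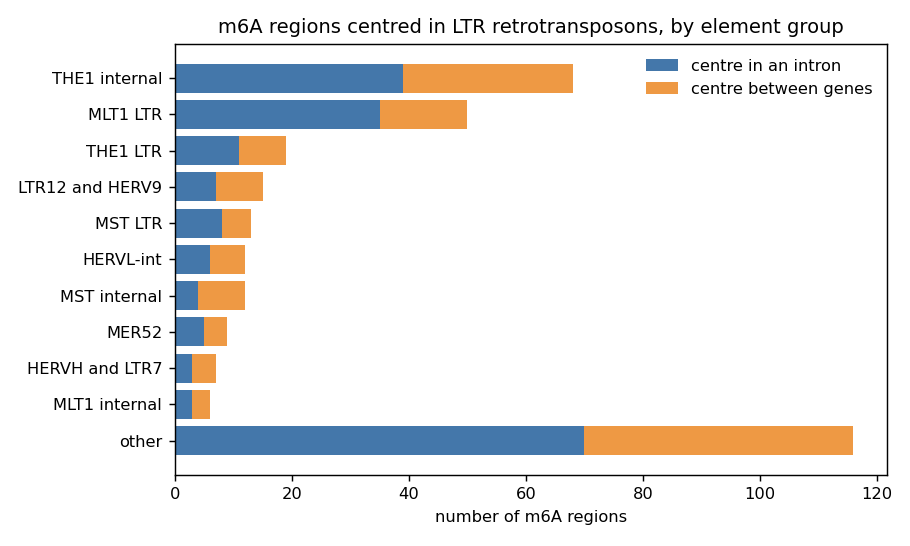
Number of m6A regions per group of LTR elements, split by whether the centre lay in an intron or between genes. THE1 internal sequence holds 68 regions, 39 intronic and 29 intergenic, and the other named groups hold 6 to 50.

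Regions on THE1 internal sequence were alike in size. Their median width was 1412 bp with quartiles of 1268 and 1644 bp, and 63 of the 68 were up to 2 kb wide. The 4 subfamilies gave medians of 1481 bp (THE1B-int, n = 33), 1370 bp (THE1C-int, n = 13), 1324 bp (THE1D-int, n = 12) and 1426 bp (THE1A-int, n = 10). All regions of THE1A-int, THE1C-int and THE1D-int were under 2 kb, with 1873 bp as the widest, and the 5 wider regions were all in THE1B-int, up to 17781 bp.

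Regions centred in the LTRs of these elements spread over a far wider range. The 19 THE1 LTR regions had a median of 3749 bp and quartiles of 1246 and 18451 bp, and 7 were up to 2 kb wide. Over the whole ERVL-MaLR group, 77 of 86 regions with an internal name were up to 2 kb wide, against 38 of 82 with an LTR name. In ERV1 elements the same counts were 13 of 28 and 32 of 62. HERVL-int, the internal part of an ERVL provirus, had a median of 1756 bp, with 9 of 12 up to 2 kb. The split by internal part was made after the widths were seen and has no test. How much of a region lies inside the named element was not analysed here.

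**Figure D3:**
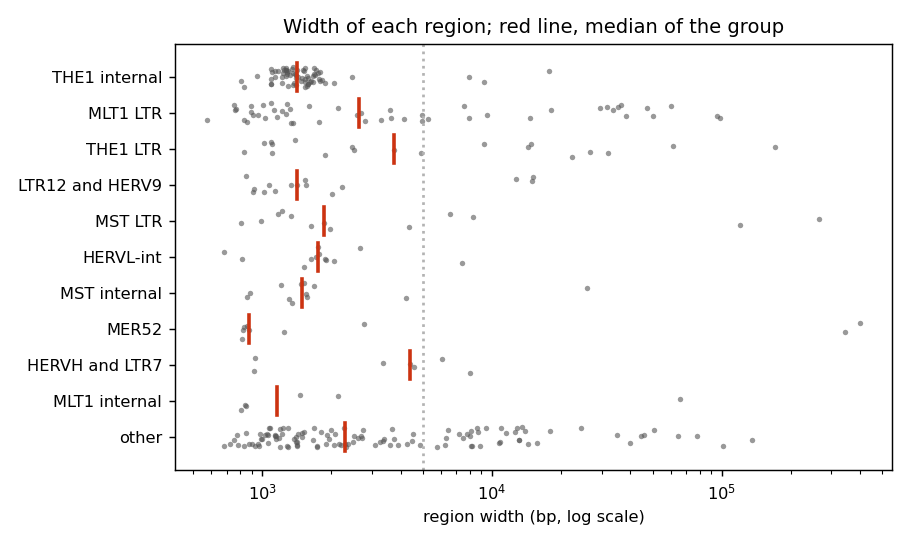
Width of every member in bp (log axis) by element group; each point is 1 region, the red line the median of the group, and the dotted line marks 5 kb. THE1 internal regions crowd around a median of 1412 bp, while THE1 LTR and MLT1 LTR regions reach beyond 50 kb.

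The members as a whole were 578 to 398467 bp wide, with a median of 1656 bp and quartiles of 1202.5 and 4937 bp, and 7 were over 100 kb. The widest was intergenic, on chromosome 10 at positions 105381057 to 105779523, with MER52A at its centre and LINC02627 as the nearest gene. Next came 344902 bp on chromosome 13 (55694828 to 56039729, MER52-int, nearest to MIR5007), 263769 bp on chromosome 9 (62538456 to 62802224, MSTB, nearest to LINC01410) and 170543 bp on chromosome 11 (71600157 to 71770699, THE1B, nearest to FAM86C1). Those of 135636 bp at ERVL-E-int and 101467 bp at MER51-int were nearest to REC114 and NAP1L6. The other over 100 kb had 120389 bp, at MSTA in intron 47 of 59 of the collagen gene COL24A1. The 10 widest also held regions of 97893 bp (MLT1D, nearest to UACA) and 95159 bp (MLT1A0, in LINC01470). The last had 77817 bp (MER34B-int, in intron 2 of 6 of DDAH1). For these 10 regions the name gives the element in the middle, and what else they cover was not analysed here.

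Members were compared with regions centred in L1 elements (2215), in Alu elements (672) and in introns or between genes without a repeat (2505). L1 and Alu are retrotransposons without LTRs. Fisher's exact test, two-sided, was used on counts of regions, with Benjamini-Hochberg adjustment over 16 tests. It takes regions as independent, though neighbours and copies of 1 element are not. Intervals are exact 95% binomial intervals and cover counting error only. How sequence of each class is spread over introns, between genes and around start sites was not analysed here. A difference in these shares is therefore not set apart from where the repeats lie in the genome. The share between genes and the share with a nearest gene that is not protein-coding were not separated from each other.

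LTR regions lay between genes more often than regions at Alu elements or without repeats. The share was 41.6% (136 of 327, interval 36.2 to 47.1%), against 9.67% (65 of 672, 7.54 to 12.2%) for Alu and 10.2% (255 of 2505, 9.02 to 11.4%) without a repeat, with adjusted Fisher's exact p of 2.88e-29 and 4.29e-40. Against L1, with 35.35% between genes (783 of 2215, 33.4 to 37.4%), the difference of 6.24 points passed narrowly (adjusted Fisher's exact p = 0.0449). Without regions over 100 kb it was 5.44 points and missed the threshold (adjusted Fisher's exact p = 0.0892).

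The genes nearest to LTR regions were more often not protein-coding than in any of the 3 other classes. The nearest start site belonged to such a gene for 118 of 327 members (36.1%, 30.9 to 41.6%), of which 93 were typed as non-coding RNA, 17 as pseudogenes, 4 as snRNA and 4 as snoRNA. The share was 29.4% at L1 (647 of 2204; adjusted Fisher's exact p = 0.0228), 15.2% at Alu (102 of 670; 1.52e-12) and 20.3% without a repeat (507 of 2499; 2.36e-09). Merging kept only the widest of regions of a class less than 50 kb apart. With merging, the difference from L1 was 5.96 points and missed the threshold (adjusted Fisher's exact p = 0.0534). It also missed it without regions over 100 kb when genes with no type were counted as not protein-coding, as they were at first (5.86 points, adjusted Fisher's exact p = 0.06).

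LTR regions lay near start sites more often than L1 regions and less often than Alu regions or those without a repeat, and they were wide more often than L1 regions and less often than Alu regions. The centre lay within 10 kb of an annotated start site for 28.7% of members (94 of 327, 23.9 to 34.0%), more than the 11.7% of L1 regions (260 of 2215; adjusted Fisher's exact p = 1.92e-13) and less than the 37.8% of Alu regions (254 of 672; 0.0102) and the 39.2% of regions without a repeat (982 of 2505; 4.31e-04). Among regions up to 2 kb the difference from Alu was -5.34 points and missed the threshold (adjusted Fisher's exact p = 0.356). Of the members 24.5% were wider than 5 kb (80 of 327, 19.9 to 29.5%), against 12.7% at L1 (282 of 2215; adjusted Fisher's exact p = 2.82e-07) and 38.7% at Alu (260 of 672; 1.62e-05). Without a repeat the share was 26.7% (669 of 2505), and the difference of -2.24 points did not pass (0.484). With wide taken as over 10 kb the difference from Alu did not pass either (-5.22 points, 0.0754).

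**Figure D4:**
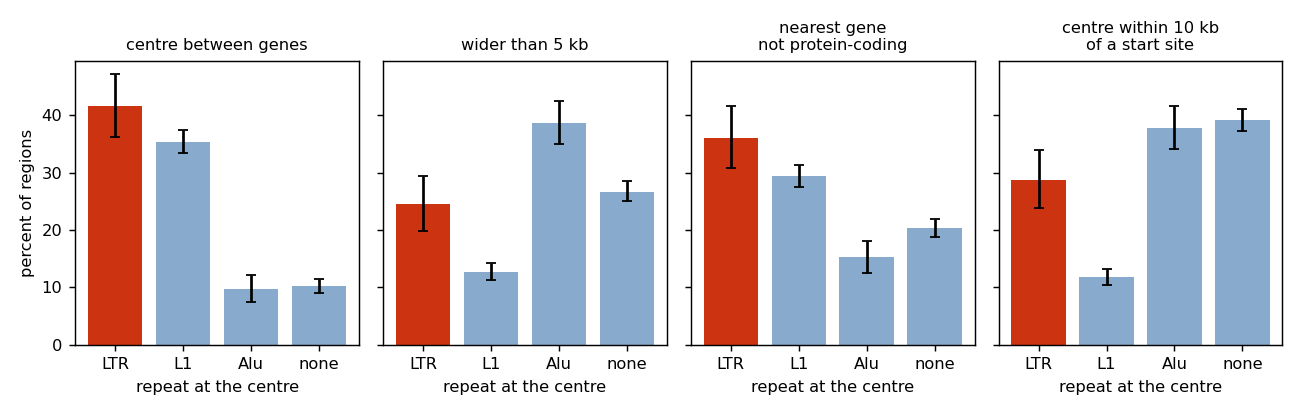
Percent of regions with the centre between genes, wider than 5 kb, with a nearest gene that is not protein-coding, and centred within 10 kb of a start site, for regions centred in LTR, L1 and Alu elements and without a repeat; error bars are exact 95% binomial intervals. LTR regions have the highest share between genes, 41.6%, and a share near start sites, 28.7%, between that of L1 and those of the other classes.

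No difference between the 2 largest families of LTR elements passed the test. ERV1 regions lay between genes in 42.2% of cases and ERVL-MaLR regions in 40.5%, a difference of 1.75 points (adjusted Fisher's exact p = 0.792, n = 90 and 168). The nearest gene was not protein-coding for 38.9% and 32.7% (adjusted Fisher's exact p = 0.418). The intervals were 31.9 to 53.1% for ERV1 and 33.0 to 48.3% for ERVL-MaLR for the first share, too wide to show likeness.

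HERVH, the family most associated with pluripotent cells, gave 7 regions by name, HERVH, HERVH48 and LTR7 names together. The HERVH-int regions were 4, of 4377 bp in intron 2 of 2 of LINC00458, a long non-coding RNA of pluripotent cells (chromosome 13, 54126743 to 54131119), 3355 bp between genes far from EPHA3 on chromosome 3, 928 bp in intron 2 of 11 of TCAF2 and 918 bp between genes on chromosome 12. LTR7 itself was at the centre of 1 intergenic region of 6074 bp on chromosome 2 (71083534 to 71089607, nearest to NAGK). LTR7Y was at that of 1 of 4584 bp nearest to MIR4432HG. HERVH48-int, a distinct element of similar name, was at that of 1 of 7988 bp in intron 6 of 10 of CNST. Of the 7, 4 were intergenic and 4 had a nearest gene that is not protein-coding (57.1% each, 18.4 to 90.1%). Neither share passed the test against the other 320 members (41.25 and 35.6%; adjusted Fisher's exact p of 0.486 and 0.344), and with 7 regions a likeness is not shown.

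Among 12 transcripts known to be linked to HERVH, 3 had a region over the gene and 1, LINC00458, had a member within 5 kb. Of all 59665 genes of the RefSeq table, 13.8% had a region over the gene and 0.758% a member within 5 kb (7.20 and 0.716% of the lncRNA genes), and with 12 transcripts nothing particular to the list is read from these counts. LINC-ROR, a long non-coding RNA of reprogramming, had a region of 1384 bp in exon 5 of 5 (chromosome 18, 57054683 to 57056066), and HHLA1 was met by a region in a 3' UTR. ESRG, a HERVH-derived RNA of stem cells, ABHD12B, LINC00678 and LINC01108 had none within 5 kb. Further away, LNCPRESS2 was the nearest gene of a THE1B-int member centred 23452 bp from its start site. LINC01108 was that of an MLT1F member centred at -227537 bp. A centre in an exon is annotated to the exon and carries no repeat name, so LTR sequence inside exons is outside the members by construction. Of 20 symbols of pluripotency genes (1 gene under both CRIPTO and its old symbol TDGF1) 9 and of 7 genes of retroelement silencing 5 (among them TASOR, MPHOSPH8 and PPHLN1 of the HUSH complex) had a region over the gene, against 30.2% of all protein-coding genes. These were 17 and 7 regions, none of them a member, and members are 3.30% of all regions, so a count of 0 among so few is near the background.

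ERVK elements, the youngest class of human endogenous retroviruses, gave 14 regions under 10 names. HERVK-int was at the centre of 1 intergenic region of 8033 bp on chromosome 7 (4586256 to 4594288), with FOXK1 as the nearest gene. HERVK9-int had 2, of 2511 bp in intron 12 of 25 of the sodium channel gene SCN8A and 1226 bp between genes on chromosome X. HERVK3-int had 2, at ERVK3-1 and, with 904 bp, between genes with ZNF726 as the nearest. LTR5B had 1 of 1228 bp, with the pseudogene SDHAP3 as the nearest gene. LTR13 led the class with 3.

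LTR12 elements, the LTRs of HERV9, together with HERV9NC-int held 15 regions, 11 of them in LTR12C. The LTR12C regions ranged from 915 to 15060 bp with a median of 1331 bp. Those in NRDC, LMBR1 and PDSS2 were in intron 1 of the host gene, and the NRDC region was 15060 bp wide. A region of 12726 bp lay 16562 bp from the start site of SOX4, between genes. The 1 HERV9NC-int region, 1552 bp, was intergenic, with A2ML1 as the nearest gene. HERVE-int, named after its values were seen, had 5 regions of 1059 to 4534 bp, and in all 5 the nearest gene was a pseudogene or non-coding RNA. Among all members, 118 of 327 (36.1%) had a nearest gene that is not protein-coding. Of the 5, 2 were neighbours that share FAM86C2P as nearest gene, so the 5 are not separate cases.

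Zinc finger genes recurred among the hosts of intronic members. Of 191 intronic members, 188 were matched to a gene of the RefSeq table by the transcript named, and 19 had a host whose symbol starts with ZNF (9.95%, 6.10 to 15.1%), in 18 genes. At L1 the share was 3.003% (43 of 1432, 2.18 to 4.02%), at Alu 4.28% (26 of 607, 2.82 to 6.21%) and without a repeat 4.04% (91 of 2250, 3.27 to 4.94%). The difference was not tested, a ZNF symbol covers more than KRAB genes, and clustered genes are not independent. The 19 were centred in ERVL-MaLR (8), ERV1 (7), ERVL (3) and ERVK (1) elements, and 11 lay on chromosome 19. Those up to 2 kb wide were in the antisense RNA gene ZNF528-AS1 (THE1B-int, 1227 bp), ZNF578 (MER21A, 1377 bp), ZNF43 (MSTB, 1971 bp), ZNF605 (MER68-int, 1689 bp), ZNF594 (THE1A-int, 1785 bp), ZNF713 (MLT1G1-int, 813 bp) and the 3 genes with MER57E3. ZNF264 held 2 members in intron 2 of 3, at HERVL-int (7440 bp) and THE1B (3749 bp), 1240 bp apart. Chromosome 19 carried 23 of the 327 members (7.03%, 4.51 to 10.4%), against 2.17% of L1 regions, 9.97% of Alu regions and 4.95% of regions without a repeat.

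Within introns, 64 of 191 members were in intron 1 (33.5%, 26.9 to 40.7%), against 22.8% at L1 (20.6 to 25.03%), 31.5% at Alu and 26.8% without a repeat, and 39 (20.4%) were in the last intron. The named transcript was non-coding for 51 (26.7%, 20.6 to 33.6%), against 20.9% at L1, 10.9% at Alu and 11.8% without a repeat. Some of these transcripts are non-coding isoforms of protein-coding genes, DNMT3A, CBLB and EOGT among them. None of the shares within introns was tested.

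The 327 members had 306 different nearest genes. The median gap to the next m6A region of any kind was 25677 bp, the smallest 723 bp, and 69 members had another region within 5 kb. Gaps of the other classes were not analysed here, so whether members lie apart or close together is not known. There were 18 genes nearest to more than 1 member, with 39 members in all. MBL2, MIR5007 and RNU2-1 had 3 each. The RNU2-1 group on chromosome 17 joined LTR13 and, on either side of it, ERV3-16A3_I-int, between 43236129 and 43294591. The MIR5007 group spanned 55054204 to 56039729 on chromosome 13, with HERV17-int, MLT1G3-int and MER52-int. The MBL2 group held MER77, MER52A and THE1B on chromosome 10, centred at -185250 to -714988 bp from the start site of MBL2. Nearest to FAM86C2P, a pseudogene on chromosome 11, 2 regions of 2357 and 1059 bp were both centred in HERVE-int with 1394 bp between them. Those nearest to UBA6-AS1, at LTR54B and THE1B, were 1000 bp apart in the same intron. The smallest gaps between members nearest to ERVK3-1, TAPT1-AS1 and C1QTNF3 were 5687, 5811 and 8533 bp. The other genes nearest to 2 members were ARRDC3, DIAPH2-AS1, GMDS-DT, LINC00877, OR7E12P, SCAMP1, SMARCA2, STX18, TCERG1L-AS1 and ZNF264. Nearest does not mean close, as the ARRDC3 members were centred at -835913 and -936184 bp from its start site.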

How the data were processed

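Per the submitters' processing notes, reads were handled with MACS2 2.2.7.1, HISAT2 2.2.1, Trim Galore 0.6.7, HOMER, bedtools 2.30.0 and SAMtools 1.6 on hg38. Their settings, what was intersected and the treatment of reads with several alignments, which bears on repeats, are not given in the sources used here. Deposited by the authors were 9900 region positions in base pairs and, per the file headers, an annotatePeaks.pl annotation of the same 9900 positions, with a Peak Score of 0 in every line. Repeat, host transcript and nearest start site are those of the centre.

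Shares of regions were compared by Fisher's exact test (SciPy 1.17.1). The code was run on simulated regions for the share between genes only. Those regions were drawn independently, so the run says nothing on dependence between neighbours or copies. Genes with no type were first counted as not protein-coding; after those results were seen, regions nearest to them were left out, and the first version is given as an added alternative. Hosts were matched to RefSeq genes (GRCh38.p14) by transcript, and promoters aligned with Biopython 1.88. The 7 members on a chromosome without start sites in the promoter table were left out of the start-site counts. Members and lists were chosen with earlier results of these data known. Named were the 10 commonest elements, all HERVH, HERVK and HERV9 regions, the 10 widest members, the 10 centred closest to a start site, intronic members up to 2 kb in listed genes, and genes nearest to more than 1 member. Element groups, the split by internal part, the start-site counts, the promoter sets and the shares by host, intron and chromosome were chosen after values were seen. Alternatives were width and distance limits, merging, 1 region per gene, uncertain names, sex chromosomes and untyped genes. Merging kept the widest region of each chain, with its own centre and width, and dropped the others. Some single regions are not reported here.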

Additional observations from a re-analysis of the deposited data

How the results depend on the processing

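The 16 comparisons were repeated under alternatives that gave 124 values, and 113 kept their direction and their side of the threshold. Calls were lost by the difference from Alu in closeness to a start site with regions of 2 kb or less (-5.34 points, adjusted Fisher's exact p = 0.356), from L1 in the share between genes without regions over 100 kb (5.44, 0.0892), from L1 in non-coding nearest genes with regions merged within 50 kb (5.96, 0.0534), and from Alu in width with wide meaning over 10 kb (-5.22, 0.0754). With untyped nearest genes counted as not protein-coding, the first version of that measure, the difference from L1 passed (6.38 points, 0.033), but not without regions over 100 kb (5.86, 0.06) or with merging (5.71, 0.0638), so the change of measure restored the first of these calls. This alternative was added after the data were seen. The width difference from regions without a repeat passed with wide meaning over 2 kb (-10.0 points, 0.00129) and was 0.958 points over 10 kb. HERVH against other LTR elements between genes was -2.08 points with regions of 2 kb or less and -1.61 with HERVH-int and HERVH48-int alone, but 8.51 with HERVH-int alone (4 regions, also added later), and ERV1 against ERVL-MaLR was -0.518 with 1 region per gene, none of them called. The cause of these changes was not tested. No paired analysis was possible because the deposited set is 1 intersection with no value per replicate, and for the same reason no replicate could be left out and no stricter peak score applied. Depth and signal over input were unknown.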
